A study of Mus musculus with 4 samples.

Results

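The respiratory chain genes of 4 mouse single-cell libraries were described, with the genes of the nucleus and those of the mitochondrial genome kept apart. They were chosen by symbol, from those starting with Nduf, Cox4 to Cox8, Uqcr or Atp5 and, on the mitochondrial genome, mt-Nd, mt-Co, mt-Cyt or mt-Atp, leaving out symbols with -ps. Each library listed 102 such genes, 89 nuclear and 13 mitochondrial, among 32285 features in the lung libraries and 31053 in the allograft libraries. Over all libraries these were 104 identifiers, 91 of them nuclear, out of 32932. The lung files named Atp5md and Atp5mpl, for which the allograft files used older symbols outside the rule, and the allograft files named Atp5s and a second Atp5o identifier. ATP synthase sums therefore held 17 nuclear genes in the lung and 16 in the allografts, and levels were compared within a pair only.

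The respiratory chain sits in the inner mitochondrial membrane. Complex I takes electrons from NADH, complex III passes them on to cytochrome c, and complex IV hands them to oxygen, while ATP synthase, or complex V, uses the proton gradient that the chain builds. Most subunits come from nuclear genes and are imported, whereas a small set of core membrane subunits is made inside the mitochondrion from RNAs that are cut out of long joint transcripts. Complex II is wholly nuclear, and its Sdh genes lie outside the rule. Ndufa4 belongs to complex IV in spite of its name and was counted there with its relative Ndufa4l2, and the Ndufaf genes, which assemble complex I and are no part of it, were kept apart.

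The 4 groups had 1 library each, made with a 3-prime droplet chemistry from digested tumours depleted of dead cells. RPR2 and CRPR2 were tumours of the mouse lung. RPR2 tumours are known in this field to lack Rb1, Trp53 and Rbl2, and CRPR2 tumours to lack Cracd, a regulator of actin capping, as well, although the labels spell out neither. The other pair were allograft tumours of preSC cells, a mouse precancerous neuroendocrine line, with the genotypes WT and CracdKO. Age, strain and the number of animals were not given in the sources used here, nor was the number of clones behind the CracdKO cells.

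The libraries held 9215 to 18559 barcodes and 42592323 to 110576113 UMIs, counted molecules, with medians of 2873 to 5996 UMIs per barcode. Any pair of libraries shared 36 to 79 barcodes. Levels are summed UMIs of a gene scaled to 1000000 UMIs of its cell class (CPM), and intervals are exact, at 95%, and cover counting error only. Since 1 UMI stands for 1 captured 3-prime end, levels were not divided by gene length. A gene was called higher or lower at a ratio of 1.5 where the higher library had 20 CPM or more. With 1 library per group there was no replicate check, and neither p-values nor SDs were computed.

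Cracd RNA, listed as C530008M17Rik, went against the allograft labels. In tumour cells it stood at 31.6 CPM (29.3 to 34.0) in RPR2 and 23.6 CPM (21.8 to 25.5) in CRPR2. It stood at 6.51 CPM (5.96 to 7.09) in the library labelled preSC_WT and at 84.3 CPM (82.4 to 86.2) in that labelled preSC_CracdKO. Since 3-prime ends are counted, RNA of a gene that lost another stretch would still be seen, so this is no check of the deletion. Whether the labels of the 2 allograft libraries were exchanged was not tested, and an exchange would turn every allograft direction. Every allograft direction below is between the libraries labelled preSC_WT and preSC_CracdKO.

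Cell classes were rebuilt from marker genes, and the tumour class means the clusters in which a list of neuroendocrine tumour markers stood above its level in the named non-tumour clusters. In the order RPR2, CRPR2, preSC_WT, preSC_CracdKO, it held 3067, 6632, 13746 and 13600 cells. Its 20 tumour markers summed to 13601, 18499.6, 12365.5 and 6131 CPM, with 19, 19, 19 and 20 of them at 20 CPM or more. Erythroid markers summed to 37.2, 637, 35.7 and 138 CPM in these cells, and club cell markers to 213, 858, 66.5 and 1.63 CPM. Their part in the results below was not tested. The allograft class was held by different clusters in the 2 libraries, 1, 5, 6, 7 and 8 for most of preSC_WT and 0, 2, 3 and 4 for nearly all of preSC_CracdKO, and a cluster mostly of 1 library may be that library and not a kind of cell. A marker was taken as raised at 2-fold or more above that level, with a UMI in at least 5% of the cluster's cells. In clusters 0, 2, 3 and 4 only 11 to 13 of the 20 markers were raised. Against all clusters the B-cell or the erythroid list scored higher there than the tumour list. In the clusters that held most of preSC_WT 19 of 20 were raised, and the tumour list scored highest. The clusters, and to a smaller extent the class, changed with the random seed of the clustering. With another seed the tumour class held 2696, 6047, 13747 and 13598 cells, so values within single clusters describe 1 such division.

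Several mitochondrial genes overlap, and these sequences are shown because mt-Atp8 and mt-Nd4l differed between libraries otherwise than the genes they overlap. Sequences are those of GENCODE vM21 on GRCm38, and capitals mark the shared bases. The end of mt-Atp8 (chrM:7910-7969, plus strand) and the start of mt-Atp6 (chrM:7927-7986) share 43 bases, and the end of mt-Nd4l (chrM:10144-10173) and the start of mt-Nd4 (chrM:10167-10196) share 7 bases.
mt-Atp8 end: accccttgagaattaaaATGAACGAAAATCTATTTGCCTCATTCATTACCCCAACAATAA
mt-Atp6 start: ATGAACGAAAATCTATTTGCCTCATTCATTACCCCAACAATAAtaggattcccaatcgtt
mt-Nd4l end: gtccaaaatctcaacctactacaATGCTAA
mt-Nd4 start: ATGCTAAaaattattcttccctcactaatg
Each of these pairs is known to stay on 1 joint messenger RNA, so a UMI at the end of mt-Nd4 or mt-Atp6 may come from an RNA that also carries mt-Nd4l or mt-Atp8. mt-Atp6 and mt-Co3 share 1 base, and mt-Nd5 and mt-Nd6 share 14 bases on opposite strands.

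Of the mitochondrial genes, 7 also have a nearly identical copy on chromosome 1 (GRCm38, 24611535 to 24616197). The copies of mt-Nd4, mt-Nd4l, mt-Co3, mt-Atp6 and mt-Co2 match over every aligned base (876, 294, 783, 678 and 681 bases), that of mt-Nd3 over 344 of 345 and that of mt-Co1 over 486 of 492. None of the copies was listed in the count tables, and how the counting treated reads that match both is not given in the sources used here, so counts of these 7 genes are uncertain to that extent. mt-Nd1, mt-Nd2, mt-Nd5, mt-Nd6, mt-Cytb and mt-Atp8 have no such copy in this annotation.

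The nuclear genes lie scattered over 19 chromosomes, with 9 on chromosome 7, the most on any, and Ndufa1, Ndufb11 and Cox7b on X. Nuclear respiratory factor NRF1, ETS factors and YY1 are known regulators of such genes, and promoters, taken as 250 bases before to 50 after the start in RefSeq (GRCm38.p6), were searched on both strands for the NRF1 motif, GCGC and GCGC with any 2 bases between, and for CCGGAAG (ETS) and AANATGGCG (YY1). Of 90 nuclear symbols, 74 matched the table, with 79 windows. The NRF1 motif was found in 20 of these windows (25.3%), against 6.23% of all 32851 windows. CCGGAAG was found in 17 (21.5%), against 8.86%, and AANATGGCG in 11 (13.9%), against 2.38%. A match is a description of letters and not a site of binding.

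The promoters of 4 genes are shown, 5′ to 3′ on the gene's strand with matched letters in capitals. Atp5o (chr16:91931581-91931880, minus strand) and Cox7b (chrX:106015450-106015749, plus) are the ubiquitous subunit genes with the largest allograft ratios, and Cox6b1 (chr7:30626065-30626364, minus) and Cox6b2 (chr7:4753045-4753344, minus) are the general and the testis form of 1 subunit.
Atp5o: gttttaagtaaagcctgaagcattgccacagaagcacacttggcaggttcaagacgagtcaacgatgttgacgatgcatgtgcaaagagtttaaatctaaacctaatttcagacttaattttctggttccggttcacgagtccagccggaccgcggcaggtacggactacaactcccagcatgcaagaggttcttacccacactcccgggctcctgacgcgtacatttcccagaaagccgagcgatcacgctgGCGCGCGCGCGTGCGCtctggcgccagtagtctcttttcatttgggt
Cox7b: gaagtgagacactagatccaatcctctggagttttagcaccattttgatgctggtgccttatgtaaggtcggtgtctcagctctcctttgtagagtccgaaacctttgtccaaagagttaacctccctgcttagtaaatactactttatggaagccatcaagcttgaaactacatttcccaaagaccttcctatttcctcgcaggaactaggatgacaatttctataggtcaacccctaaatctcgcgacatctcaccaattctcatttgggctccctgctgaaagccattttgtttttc
Cox6b1: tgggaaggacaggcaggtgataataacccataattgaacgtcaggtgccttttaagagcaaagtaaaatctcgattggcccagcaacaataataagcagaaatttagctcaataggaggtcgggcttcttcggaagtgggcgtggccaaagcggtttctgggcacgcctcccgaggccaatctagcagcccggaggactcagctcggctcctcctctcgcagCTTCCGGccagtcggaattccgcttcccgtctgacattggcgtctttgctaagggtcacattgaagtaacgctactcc
Cox6b2: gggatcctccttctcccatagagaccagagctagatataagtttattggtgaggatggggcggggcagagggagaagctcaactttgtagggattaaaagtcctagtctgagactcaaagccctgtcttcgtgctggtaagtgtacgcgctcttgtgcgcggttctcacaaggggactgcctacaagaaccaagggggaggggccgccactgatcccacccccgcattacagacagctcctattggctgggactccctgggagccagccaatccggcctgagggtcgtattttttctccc
Atp5o held overlapping NRF1 matches and Cox6b1 an ETS match, read on the other strand, whereas the windows of Cox7b and Cox6b2 held none of the 3 motifs.

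Tumour cells had the highest summed nuclear level of any class in both lung libraries and in preSC_WT. Among lung classes of at least 50 cells, the sum over nuclear subunit genes was 29546 CPM in RPR2 and 29323 CPM in CRPR2 tumour cells. In RPR2, T-cell-like cells, whose clusters differed as given below, followed at 25934 CPM, macrophage-like cells at 22731 CPM and club-like airway cells at 19909 CPM. B-cell-like cells, at 13567 CPM, and plasma-cell-like cells, at 12631 CPM, were lowest. The highest class stood 2.34-fold above the lowest in RPR2 and 2.18-fold in CRPR2, where neutrophil-like cells were lowest at 13431 CPM. Monocyte-like and club-like cells lay between these in both lung libraries, at 18805 to 21511 CPM. In club-like cells 17 tumour markers were also raised, by the rule given for the tumour clusters. The part of tumour cells in this class was not tested.

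The complexes did not all have their lowest level in the same class. In CRPR2, nuclear complex I ran from 9607 CPM in tumour cells to 3875 CPM in unnamed cluster 4, which has Dapl1, Lef1 and Ccr7 among its leading genes. Complex III ran from 3046 CPM in tumour cells to 1217 CPM in neutrophil-like cells, and ATP synthase from 8698 to 3762 CPM in the same classes. Complex IV ran from 7972 CPM in tumour cells to 3588 CPM in plasma-cell-like cells. Tumour cells had the highest level for every nuclear complex in CRPR2.

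Mitochondrial RNA followed another order, in which B-cell-like cells stood highest and tumour cells in the middle. The 13 mitochondrial genes summed to 40480 CPM in B-cell-like cells of RPR2 and 46020.2 CPM in those of CRPR2, against 27715 and 27488 CPM in tumour cells. Plasma-cell-like cells had 17729.5 and 16977 CPM, and neutrophil-like cells of CRPR2 had the least, 9090.2 CPM. Neutrophils are known to hold few mitochondria. Their complex IV RNAs summed to 5001 CPM, against 22361 CPM in B-cell-like cells of that library. Over classes the mitochondrial sum therefore varied 5.06-fold in CRPR2 and 2.28-fold in RPR2, where fewer than 50 neutrophil-like cells were kept.

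T-cell-like cells of RPR2 fell into a cycling cluster and 2 others with different nuclear levels. The class held no CRPR2 cell in this clustering, but unnamed cluster 4, with 475 CRPR2 cells, scored highest for T-cell markers, and with the other random seed a cluster named T-cell-like held 873. Rag1, Themis and Ccr9 were among the leading genes of cluster 0, and Il2ra, Hes1 and Trdc among those of cluster 17. Cluster 4 was led by other genes, among them Lef1 and Ccr7, so these may be different kinds of T cell. The cycling cluster 10 (611 cells) had 32133 CPM of nuclear and 25477 CPM of mitochondrial RNA. Cluster 0 (2707 cells) had 19168 and 33544 CPM, and cluster 17 (69 cells) had 19099 and 36210 CPM. The nuclear sum was highest, and the mitochondrial sum lowest, in the cycling cluster.

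In the allografts the stromal and immune classes lay below the tumour cells for nuclear RNA, and the erythroid-like cells of preSC_CracdKO above them. Tumour cells had 27128 CPM in preSC_WT and 34273 CPM in preSC_CracdKO. In preSC_WT, endothelial-like cells had 19483 CPM, T-cell-like cells 18019 CPM and B-cell-like cells 14339 CPM, with macrophage/monocyte-like and fibroblast-like cells at about the same level above these. The 127 erythroid-like cells of preSC_CracdKO had 36333 CPM. This lay within the range of the tumour clusters of that library, of which clusters 0 and 4 had 36481 and 37078 CPM. Haemoglobin UMIs are part of the total behind the erythroid-like value. In these erythroid-like cells 12 tumour markers were also raised over their median level in the named non-tumour clusters, by the rule given above. Mitochondrial RNA varied 1.31-fold over the classes of preSC_WT, from 14222 CPM in macrophage/monocyte-like to 18571 CPM in B-cell-like cells, a narrower range than in any other library.

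**Figure D1:**
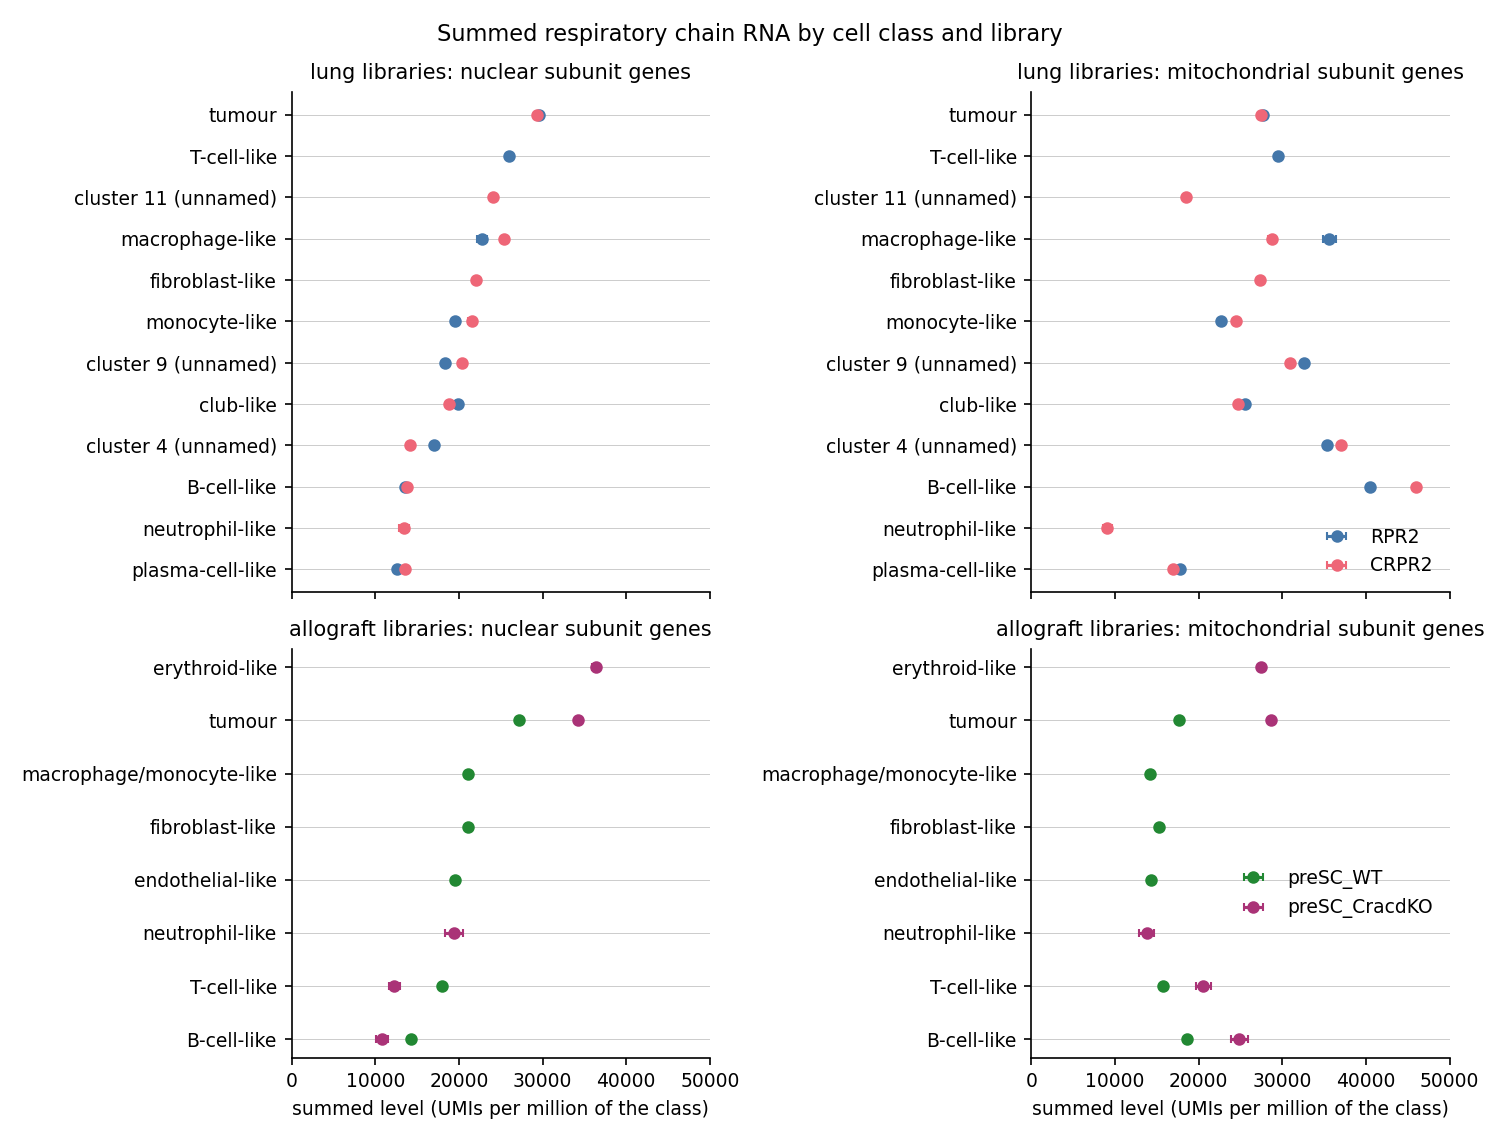
Summed level (CPM of the class, linear axis from 0) of nuclear (left) and mitochondrial (right) subunit genes in each class with at least 50 cells, for the lung libraries (top) and the allograft libraries (bottom). Points are library values and bars are 95% counting intervals, mostly smaller than the points. Tumour cells reach 29546 and 29323 nuclear CPM in the lung libraries, and B-cell-like cells stand highest for mitochondrial RNA there.

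Some cells carried almost no mitochondrial RNA, and these were unevenly spread over the classes. Under 0.5% mitochondrial UMIs were found in 39 of 68 macrophage-like cells of RPR2 (57.4%) and 110 of 212 of CRPR2 (51.9%). The share was 23.2% and 12.4% of club-like cells and 7.47% and 9.59% of tumour cells, in that order. It was 21 of 38 and 63 of 100 neutrophil-like cells, but 0 of 387 and 1 of 765 B-cell-like cells. In the allografts it was 841 tumour cells of preSC_WT (6.12%) and 125 of preSC_CracdKO (0.919%).

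In tumour cells the nuclear genes were not low where mitochondrial RNA was. Tumour cells under 0.5% had 41669 nuclear CPM in RPR2 and 43097 CPM in CRPR2, against 29275 and 28831.5 CPM in the other tumour cells. Their median depth was 1596 UMIs in RPR2, where the others had 6377.5, and 1171.5 UMIs in CRPR2, where the others had 3572. In preSC_WT the nuclear values were 36751 and 26965 CPM, and in preSC_CracdKO 42887 and 34216 CPM. Other classes went either way. Macrophage-like cells of CRPR2 had 35392 CPM under 0.5% and 22997.5 CPM in the rest, while neutrophil-like cells under 0.5% had 4161 CPM in RPR2 and 10687 CPM in CRPR2, against 13536 and 16766 CPM in the rest. In preSC_WT, 81 macrophage/monocyte-like cells under 0.5% had 19267 CPM and the rest 21303 CPM, and 14 B-cell-like cells had 10915 and the rest 14449 CPM. Low mitochondrial RNA went with shallower depth in these tumour cells, and the part of depth was not tested.

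Lung tumour cells of RPR2 and CRPR2 had nearly the same summed respiratory chain RNA from both genomes. The nuclear sum was 29546 CPM in RPR2 and 29323 CPM in CRPR2, a ratio of 0.992 (0.989 to 0.996), and the mitochondrial sum 27715 and 27488 CPM, a ratio of 0.992 (0.988 to 0.995). Of 89 nuclear genes, 80 reached 20 CPM. Of these 0 were called higher, against 2.1% of all 7202 genes, and 0 lower, against 2.24%. The median log2 ratio was -0.02 over these members and -0.03 over all genes. Beside this, immediate-early and heat shock genes of a dissociation and stress list summed to 24074 CPM in RPR2 and 31481 CPM in CRPR2, with 7 of 20 higher, and 6 of 15 genes of the G2 and M phases were lower.

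Complex I and the other complexes leaned in different directions by a few percent. Nuclear complex I summed to 9264 CPM in RPR2 and 9607 CPM in CRPR2, a ratio of 1.04. Ratios were above 1 for 17 of its 29 accessory subunits, which surround the core. They were above 1 for 2 of its 7 nuclear core subunits, which carry the electron path. The share of all genes above 1 was not counted. Ndufa7, an accessory subunit, had the largest ratio, with 356 and 444 CPM (1.25, 1.21 to 1.28). Ndufs5, another accessory subunit and the most abundant in RPR2, had the smallest, with 553 and 473 CPM (0.855). Ndufb9, an accessory subunit of the membrane arm, had 491 and 523 CPM. The assembly factors summed to 331 and 336 CPM.

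Complex III stayed level as a sum, at 3057 and 3046 CPM (0.996). Uqcrh, the hinge protein, had 639 and 634 CPM, and Uqcrb, a small subunit next to cytochrome b, 561 and 553 CPM. Uqcr11, a small subunit, had the largest ratio (377 and 422 CPM, 1.12), and Uqcrc2, a core protein of the matrix side, the smallest (191 and 162 CPM, 0.849).

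Complex IV summed to 8243 and 7972 CPM (0.967), and 12 of its 14 genes at 20 CPM or more had ratios below 1. The share of all genes below 1 was not counted, and their median log2 ratio was -0.03. Cox4i1 and Cox8a, the most abundant, had 1195 and 1131 CPM and 1189 and 1106 CPM. Cox5a had the smallest ratio, with 483 and 419 CPM (0.866). Cox6b2, the testis form of a subunit next to cytochrome c, had the largest, with 48.5 and 54.3 CPM (1.12).

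ATP synthase summed to 8982 and 8698 CPM (0.968). Its catalytic beta subunit Atp5b had 828 CPM in RPR2 and 654 CPM in CRPR2 (0.790, 0.774 to 0.807), the smallest ratio of the tested nuclear members. Atp5o, the stalk subunit that confers oligomycin sensitivity, had 482 and 391 CPM (0.812), and was lower in CRPR2 in each of the 5 tumour clusters, with ratios of 0.786 to 0.918. Atp5k, a small membrane subunit, had 261 and 318 CPM (1.22). Atp5e, the epsilon subunit, and Atp5h, of the stalk, were the most abundant, with 984 and 1036 CPM and 829 and 803 CPM. The 3 genes that encode the same c subunit of the rotor did not move apart, with 415 and 419 CPM for Atp5g1, 706 and 702 CPM for Atp5g2 and 343 and 358 CPM for Atp5g3.

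Among the 13 mitochondrial genes of lung tumour cells, mt-Nd4l was the only one called, against 2.1% of all genes higher and 2.24% lower. mt-Nd4l, a small membrane subunit of complex I, had 136 CPM in RPR2 and 237 CPM in CRPR2, a ratio of 1.74 (1.67 to 1.82), and was higher in each of the 5 clusters, by 1.53 to 1.88. mt-Atp8, the small membrane subunit of ATP synthase, had 80.8 and 121 CPM, a ratio of 1.497 (1.41 to 1.59), just under the threshold. The genes that share a messenger RNA with these did not move with them: mt-Nd4 had 1439.5 and 1391 CPM and mt-Atp6 6423 and 6583 CPM.

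mt-Nd1 and mt-Nd2, core proton-pumping subunits of complex I, leaned the other way, with 871 and 711 CPM (0.816) and 1372 and 1112 CPM (0.811). The other complex I genes were mt-Nd3 with 201 and 216 CPM, mt-Nd5 with 345 and 341 CPM and mt-Nd6 with 28.3 and 25.4 CPM. mt-Cytb, the only mitochondrial subunit of complex III, had 2530.3 and 2321 CPM (0.917). Of the complex IV core, mt-Co1 and mt-Co2 had 4035 and 4218 CPM and 4690 and 5129 CPM, and mt-Co3 5562 and 5083 CPM (0.914). By complex, the mitochondrial ratios were 0.918 for I, 0.917 for III, 1.01 for IV and 1.03 for V.

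In allograft tumour cells, respiratory chain RNA was higher in the library labelled preSC_CracdKO, more so for the mitochondrial genome than for the nucleus. The mitochondrial sum was 17592 CPM in preSC_WT and 28679.6 CPM in preSC_CracdKO (ratio 1.63, 1.63 to 1.63), and the nuclear sum 27128 and 34273 CPM (1.26, 1.26 to 1.27). Of 80 nuclear genes at 20 CPM or more, 22 were called higher, against 15.2% of all 8146 genes, and 1 lower, against 26.6%. The median log2 ratio was 0.21 over these members and -0.15 over all genes. With the 5 clusters that both libraries held given the same weight, the nuclear log2 ratio fell from 0.34 to 0.25, with 14 genes higher and 7 lower, while the mitochondrial one was 0.74. With the clusters of another random seed weighted in this way it was 0.08, with 9 genes higher and 13 lower, and the mitochondrial one 0.71. The size of the nuclear difference in cells of the same cluster therefore depended on how clusters were drawn.

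Beside these values, the dissociation and stress list summed to 22669 CPM in preSC_WT and 4239 CPM in preSC_CracdKO, with 17 of 19 genes lower. S phase genes were lower for 4 of 15 and higher for none, and G2 and M phase genes higher for 2 and lower for 1 of 15. Over all genes 15.2% were higher and 26.6% lower. With the stress list left out of the totals the nuclear log2 ratio was 0.31 and 20 genes were higher, and without the clusters led by cell cycle or histone genes it was 0.28, with 18 higher and 4 lower. The part of the stress genes in single ratios was not tested.

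**Figure D2:**
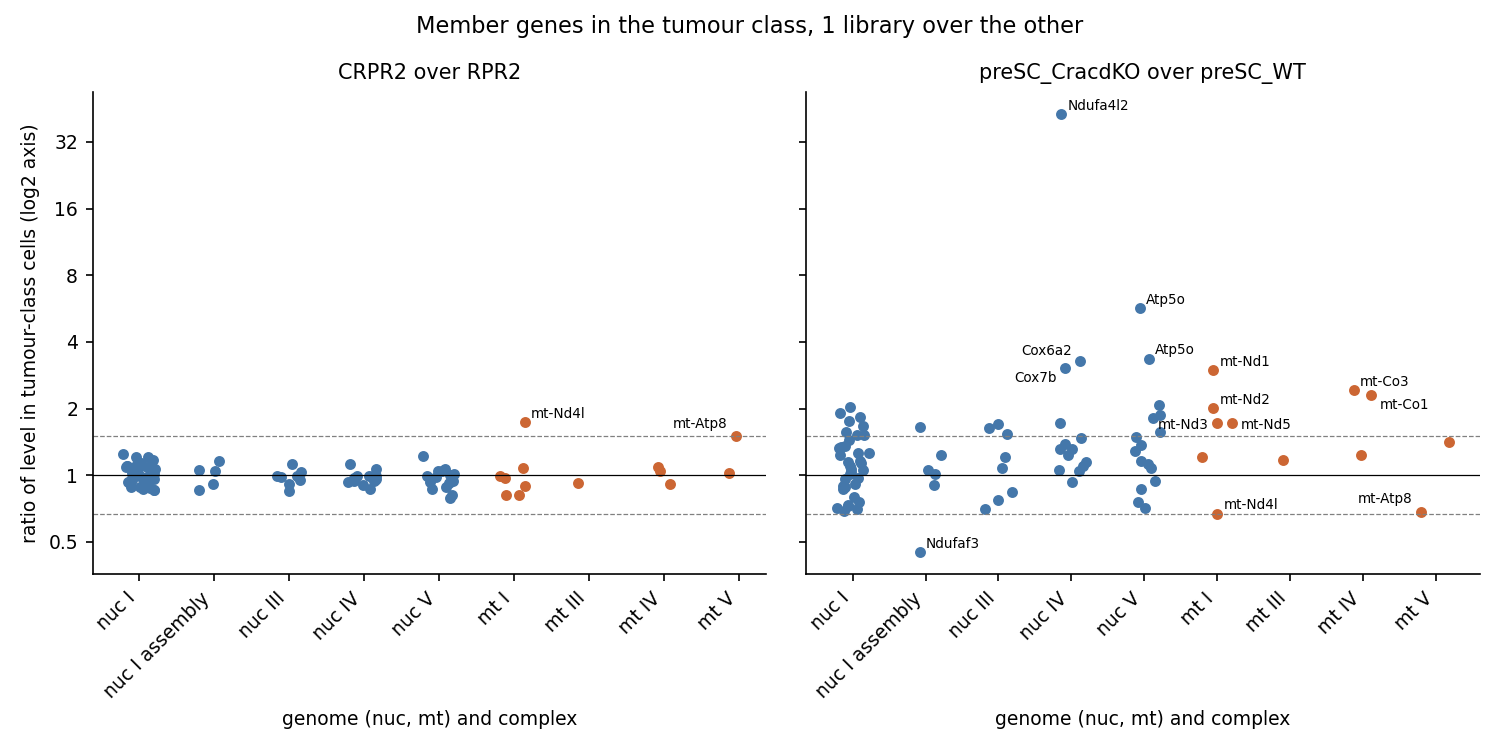
Ratio of level in tumour cells (log2 axis) of each member gene that reached 20 CPM in either library of the pair, CRPR2 over RPR2 on the left and preSC_CracdKO over preSC_WT on the right, by genome (nuc nuclear, mt mitochondrial) and complex. Dashed lines mark 1.5-fold in either direction. In the lung pair mt-Nd4l is the only gene past them (1.74), and in the allografts the points spread from Ndufaf3 at 0.449 to Ndufa4l2 at 42.8.

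Complex I was higher by 1.15 as a sum (9172 and 10514 CPM), and its called genes were accessory subunits. Of 29 accessory genes 8 were higher, and of 7 nuclear core genes none, against 15.2% of all genes. With only 7 core genes, none called is close to that share. Ndufa6, of the matrix arm, had 193 and 391 CPM (2.03), Ndufa12 236 and 448 CPM (1.90), Ndufa3 49.2 and 89.9 CPM (1.83) and Ndufa2 289 and 507 CPM (1.76). The others were Ndufa9 (1.68), Ndufv3 (1.57), Ndufa13 and Ndufa7 (both 1.52). The core genes Ndufs1, Ndufs3, Ndufs7, Ndufv1 and Ndufv2, which hold iron-sulphur clusters or flavin or lie beside them, had ratios of 0.890 to 1.23, and the core gene Ndufs8 had 175 and 129 CPM (0.735). The lowest ratios were those of the accessory genes Ndufb3 (175 and 120 CPM, 0.688) and Ndufa8 (256 and 180 CPM, 0.703). Ndufb9 was the most abundant in both libraries, with 794 and 1068 CPM. Next came Ndufb11, of the membrane arm, in preSC_WT (496 and 428 CPM) and Ndufa13 in preSC_CracdKO (364 and 553 CPM).

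The only nuclear gene called lower was an assembly factor of complex I. Ndufaf3 had 91.4 CPM in preSC_WT and 41.0 CPM in preSC_CracdKO, a ratio of 0.449 (0.431 to 0.467). Ndufaf2, another assembly factor, had 67.5 and 111 CPM (1.65). Both helpers act at the building of complex I, and the 8 together summed to 363 and 369 CPM.

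Complex III summed to 2703 and 3492 CPM (1.29), with 3 of 8 genes higher, against 15.2% of all genes. Uqcrh had 550 and 933 CPM (1.70), Uqcrq, a small subunit beside cytochrome b, 484 and 794 CPM (1.64) and Uqcr10, another small subunit, 400 and 612 CPM (1.53). Uqcrfs1, the Rieske iron-sulphur protein, had 247 and 174 CPM (0.705). Uqcrb, a further small subunit, had 381 and 321 CPM (0.842), so the small subunits did not move as 1 group.

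Complex IV summed to 7071 and 9425 CPM (1.33), with 4 of 14 genes higher, against 15.2% of all genes. Cox7b, a small membrane subunit encoded on X (106015700 to 106022450), had 233 CPM in preSC_WT and 712 CPM in preSC_CracdKO, a ratio of 3.06 (3.01 to 3.11). Cox4i1, the largest nuclear subunit, had 1119 and 1925 CPM (1.72), and Cox8a 1159 and 1227 CPM. The muscle form Cox6a2 had 22.4 and 73.3 CPM (3.28), and Ndufa4l2, a relative of Ndufa4 known to be induced by low oxygen, had 52 UMIs at 0.644 CPM and 2424 UMIs at 27.6 CPM (42.8, 32.6 to 57.5). Cox5a, on the matrix side, had the smallest ratio, with 572 and 532 CPM (0.930).

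ATP synthase summed to 8182 and 10841 CPM (1.32), with 6 of 16 identifiers higher, against 15.2% of all genes. Atp5o had 274 CPM in preSC_WT and 923 CPM in preSC_CracdKO, a ratio of 3.36 (3.31 to 3.41), the largest of any subunit gene that all tissues express. The second Atp5o identifier, which overlaps the first on chromosome 16, had 4.88 and 27.7 CPM (5.68), and the split of reads between them is uncertain. Atp5j, the stalk's coupling factor, had 440 and 914 CPM (2.08), Atp5e 853 and 1600 CPM (1.88), Atp5l 465 and 842 CPM (1.81) and Atp5k 198 and 309 CPM (1.56). These are stalk, central shaft and small membrane subunits.

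The catalytic genes of ATP synthase and those of the rotor's c subunit were below the threshold. Atp5b had 720 and 1067 CPM (1.48), and Atp5a1, the alpha subunit, 398 and 543 CPM (1.37). Of the 3 c-subunit genes, Atp5g1 had 718 and 775 CPM (1.08), Atp5g2 813 and 576 CPM (0.708) and Atp5g3 370 and 279 CPM (0.756). Atp5h, most abundant in preSC_WT, had 1178 and 1021 CPM. Within the enzyme, ratios therefore ran from 0.708 to 3.36 without the second Atp5o identifier.

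Of 12 mitochondrial genes at 20 CPM or more, 6 were higher in preSC_CracdKO, against 15.2% of all genes, and 0 lower, against 26.6%. mt-Nd1 had 507 and 1518 CPM (2.99), mt-Co3 2261 and 5482 CPM (2.42), mt-Co1 2237 and 5164 CPM (2.31) and mt-Nd2 616 and 1240 CPM (2.01). mt-Nd3 had 141 and 244 CPM (1.73) and mt-Nd5 208 and 358 CPM (1.72). All 6 belong to complex I or IV, which also hold most of the 12 genes, 6 in complex I and 3 in complex IV. mt-Nd4, mt-Nd4l and mt-Co2 of the same complexes were not called.

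mt-Atp6, the proton channel of ATP synthase, had 4097 and 5808 CPM (1.42), mt-Co2 3675 and 4521 CPM (1.23), mt-Nd4 1038 and 1259 CPM (1.21) and mt-Cytb 2383 and 2788 CPM (1.17). mt-Nd6, the only one of the 13 on the other strand, had 11.7 and 17.1 CPM. mt-Atp8 (122 and 83.6 CPM, 0.684) and mt-Nd4l (294 and 198 CPM, 0.671) were the only 2 below 1, and neither passed 1.5-fold. By complex, the mitochondrial ratios were 1.72 for I, 1.17 for III, 1.86 for IV and 1.40 for V.

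The mitochondrial difference was seen in every cluster that both allograft libraries held, and the nuclear one in 4 of 5. In clusters 0, 2, 3, 4 and 6 the mitochondrial ratio was 1.26 to 2.07 and the nuclear ratio 0.963 to 1.40. In cluster 0, led by Nrg1, 137 cells of preSC_WT had 29350 nuclear CPM and 5318 of preSC_CracdKO had 36481. In cluster 3, led by histone genes, 150 and 2720 cells had 32556 and 31344 CPM. Each cluster held few cells of 1 of the libraries, as few as 29 of preSC_WT in cluster 2 and 68 of preSC_CracdKO in cluster 6. Those of preSC_WT in clusters 0 and 3 were shallow, with medians of 1225 and 1157.5 UMIs against 5802 and 7904.5, and the part of depth was not tested.

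**Figure D3:**
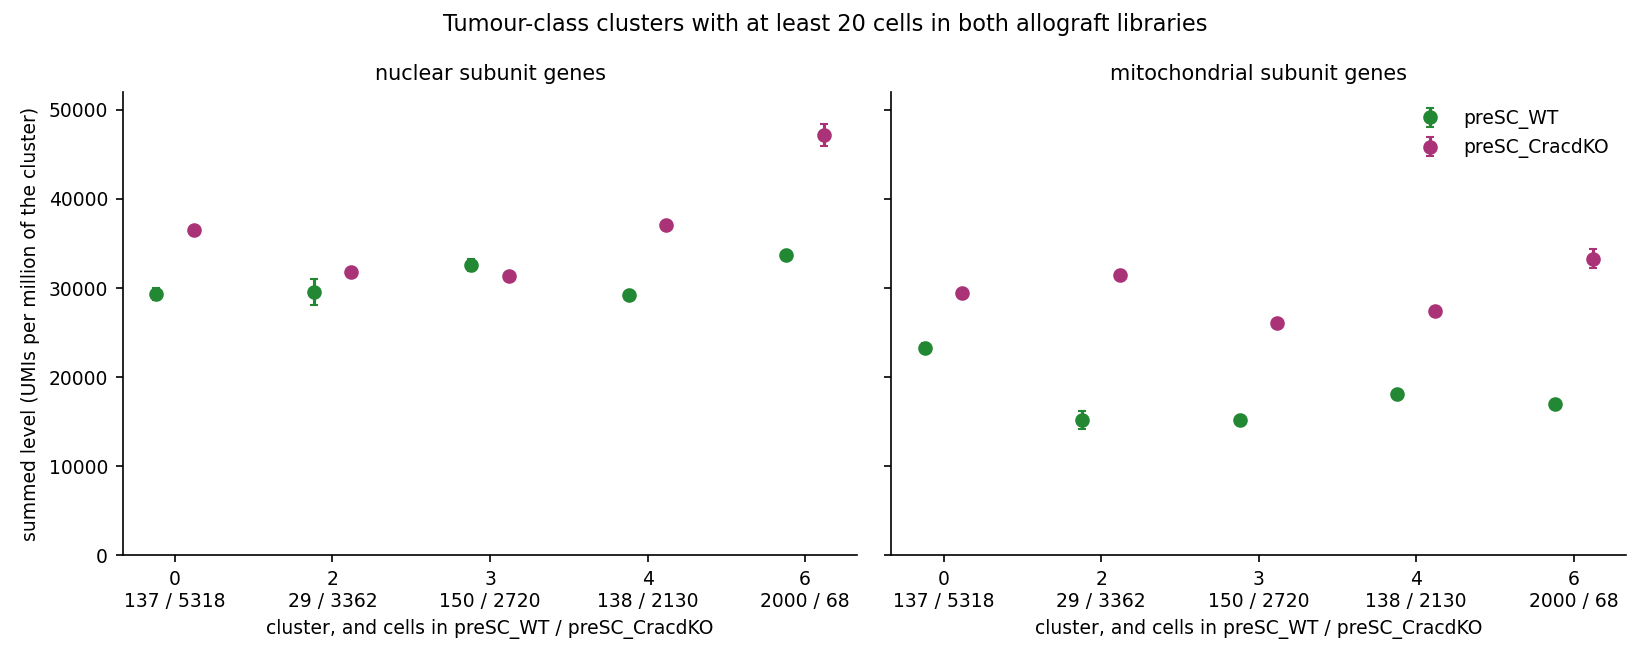
Summed level (CPM of the cluster) of nuclear (left) and mitochondrial (right) subunit genes in the 5 tumour clusters with at least 20 cells in both allograft libraries, with the number of cells under each cluster. Points are library values and bars are 95% counting intervals. The mitochondrial points of preSC_CracdKO lie above those of preSC_WT in all 5 clusters, and the nuclear points in 4.

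Atp5o and Cox7b kept their direction in all 5 of these clusters. Atp5o was higher in preSC_CracdKO by 2.44 to 4.08, with 391 and 997 CPM in cluster 0, and Cox7b by 2.01 to 5.63, with 311 and 801 CPM there. The ratio of Atp5j was 1.59 to 2.23 and that of Ndufa6 1.83 to 3.25. Ndufaf3 had ratios of 0.403 to 0.785, with an interval that holds 1 in each cluster but cluster 3 (0.424, 0.278 to 0.681). With each shared cluster at the same weight, the genes called higher were Atp5e, Atp5j, Atp5l, both Atp5o identifiers, Cox4i1, Cox7b, Ndufa12, Ndufa13, Ndufa3, Ndufa4l2, Ndufa6, Ndufv3 and Uqcrh. Those called lower were Atp5g2, Ndufa8, Ndufab1, Ndufaf3, Ndufaf4, Ndufaf6 and Ndufb3. With clusters of the other seed, those still called higher were Atp5e, Atp5j, Atp5l, both Atp5o identifiers, Cox7b, Ndufa4l2, Ndufa6 and Uqcrh, and all 7 of the lower genes were called again.

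Within these clusters, mt-Nd1 was higher by 2.23 to 3.38 and mt-Co3 by 2.05 to 3.07. mt-Nd4l had ratios of 0.480 to 0.956 and mt-Atp8 of 0.339 to 0.787. Their intervals hold 1 in clusters 2 and 6 for both, and in cluster 3 for mt-Atp8.

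The T-cell-like and B-cell-like cells of the allografts differed in the opposite direction from tumour cells for nuclear genes and in the same direction for mitochondrial genes. T-cell-like cells had 18019 nuclear CPM in preSC_WT (1670 cells) and 12286 CPM in preSC_CracdKO (71 cells), a ratio of 0.682 (0.643 to 0.723), and 15672 and 20532.5 mitochondrial CPM (1.31, 1.25 to 1.37). Of 76 nuclear genes 41 were lower, against 37.4% of all genes, and 2 higher, against 23.1%. Nuclear complex I had a ratio of 0.663, III 0.842, IV 0.746 and V 0.593, and mitochondrial complex I 1.61, III 0.967, IV 1.36 and V 1.19.

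Few UMIs stood behind single genes in these T-cell-like cells. Ndufv1, the flavin subunit of complex I, had 93.97 CPM in preSC_WT and 2 UMIs at 21.0 CPM in preSC_CracdKO. In the other direction Ndufa3 had 74.5 and 168 CPM (2.26, 1.27 to 3.76) and Cox7a2l, which helps complexes III and IV associate, had a ratio of 1.78 (1.37 to 2.28). Cox7b had 229 and 179 CPM and Atp5o 174 and 158 CPM, so the differences of these genes in tumour cells were not seen here, with ratio intervals of 0.453 to 1.26 and 0.502 to 1.51.

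B-cell-like cells, 1066 in preSC_WT and 98 in preSC_CracdKO, had 14339 and 10786.5 nuclear CPM (0.752, 0.703 to 0.804) and 18571 and 24856 mitochondrial CPM (1.34, 1.28 to 1.40). Of 77 nuclear genes 34 were lower, against 33.7% of all genes, and 4 higher, against 28.1%. Nuclear ratios were 0.684 for complex I, 0.915 for III, 0.865 for IV and 0.669 for V, and mitochondrial ones 1.40, 1.03, 1.53 and 1.06. Ndufc2, of the membrane arm, had 81.8 CPM and 2 UMIs at 23.4 CPM, and Ndufs5 154 CPM and 4 UMIs at 46.9 CPM. Ndufs1 (27.0 and 70.3 CPM) and Ndufb6 (61.0 and 93.8 CPM) went the other way, each with a ratio interval that holds 1.

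The makeup of the mitochondrial RNA differed between the allograft libraries in tumour, immune and stromal classes alike. Each gene was taken as a percent of all mitochondrial UMIs of a class, in classes of at least 30 cells, 7 per allograft library. mt-Co3 made up 12.3% to 15.5% in preSC_WT and 19.1% to 22.9% in preSC_CracdKO, and mt-Nd1 2.18% to 3.02% and 3.93% to 5.29%. mt-Nd4l made up 1.46% to 1.88% and 0.359% to 0.838%, mt-Atp8 0.516% to 0.947% and 0.213% to 0.419%, and mt-Co2 17.9% to 20.9% and 13.01% to 16.6%. For these 5 genes the ranges over classes did not overlap between the 2 libraries, and for every other mitochondrial gene they did. Such a count was not taken over all genes. Classes of 1 library share their preparation and sequencing, so they are not replicates. Neutrophil-like cells, 48 in preSC_WT and 64 in preSC_CracdKO, set the upper end for mt-Nd4l in both libraries and for mt-Atp8 in preSC_CracdKO. Mitochondrial UMIs made up 1.45% and 1.38% of their 69666 and 69365 UMIs, so few UMIs stand behind those ends.

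In the lung pair the makeup differed less, with overlapping ranges, and 4 of the 13 genes went in 1 direction over all 10 classes that both libraries held. Here too, no such count was taken over all genes. mt-Nd4l made up 0.131% to 0.721% over the 11 classes of RPR2 and 0.571% to 1.15% over those of CRPR2. It was higher in CRPR2 in 10 of 10 shared classes, by 1.43 to 4.37. The lowest percent in each library and the ratio of 4.37 are those of neutrophil-like cells, 38 in RPR2 and 100 in CRPR2. Mitochondrial UMIs made up 0.857% and 0.909% of their 89144 and 134761 UMIs, so few UMIs stand behind these values. mt-Atp8 was higher in 10 of 10, by 1.30 to 2.15, and mt-Co2 in 10 of 10, by 1.02 to 1.17. mt-Co3 was lower in 10 of 10, with ratios of 0.879 to 0.994. mt-Nd4l and mt-Atp8 were higher together in CRPR2 and lower together in preSC_CracdKO.

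**Figure D4:**
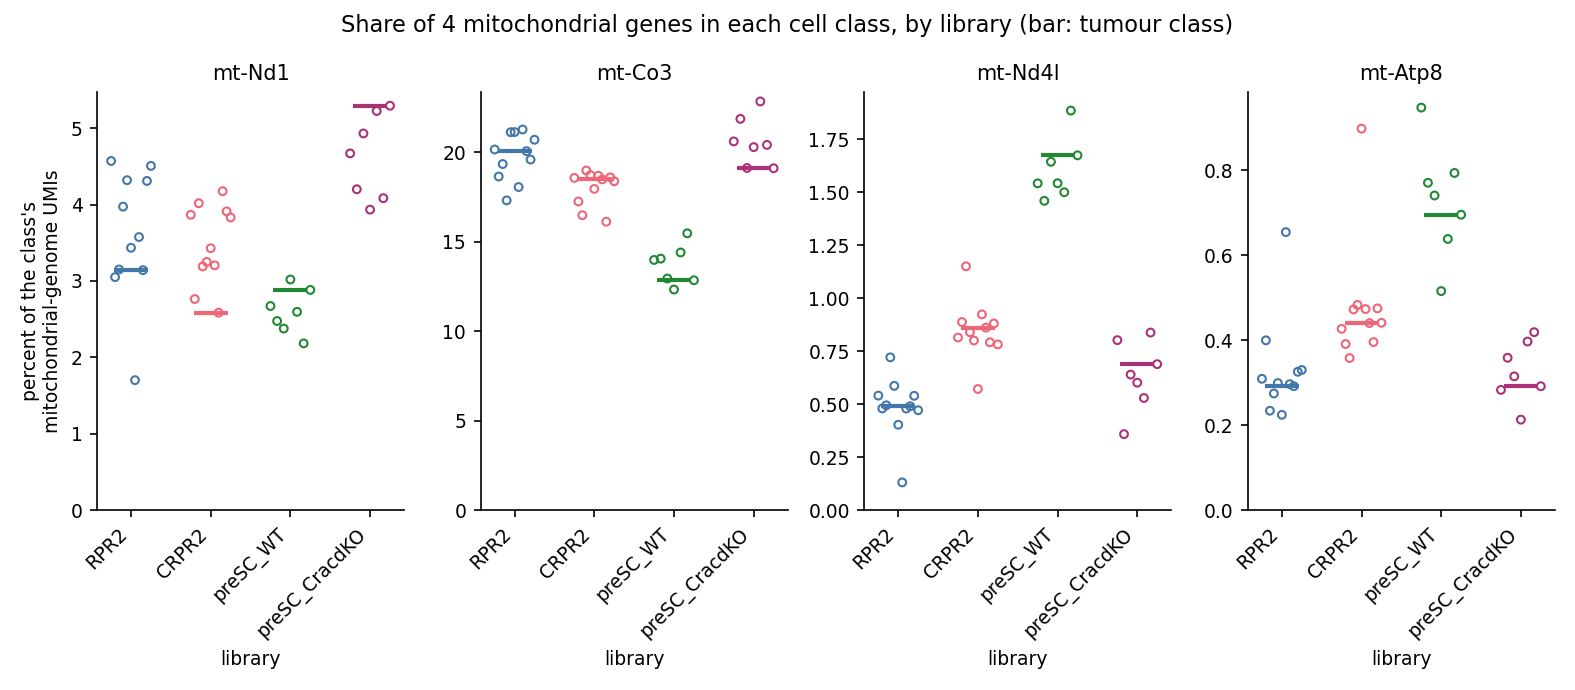
Percent of the mitochondrial UMIs of a class (linear axes from 0) taken by mt-Nd1, mt-Co3, mt-Nd4l and mt-Atp8 in each library, with 1 circle for each class of at least 30 cells and a bar at the tumour class. For mt-Co3 the allograft ranges, 12.3% to 15.5% in preSC_WT and 19.1% to 22.9% in preSC_CracdKO, lie apart.

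Tissue-restricted forms of complex IV subunits were found in lung tumour cells. Cox6a2, the form known from heart and skeletal muscle, had 87.7 and 82.7 CPM in tumour cells of RPR2 and CRPR2, and 22.4 and 73.3 CPM in those of preSC_WT and preSC_CracdKO. A UMI was seen in 19.3%, 14.4%, 9.37% and 26.0% of them. Thinned to 1000 UMIs per cell, which left out 87, 399, 790 and 177 cells, the shares were 6.78%, 5.95%, 2.25% and 7.05%. B-cell-like cells, which should lack the gene, had 0.524% in RPR2 and 0.289% in CRPR2 after thinning, and 0.517% and 0.523% before, with median depths of 2294 and 1374 UMIs against 6070.0 and 3380.5 in tumour cells. In preSC_WT a UMI was seen in 2.25% (2.00% to 2.52%) of thinned tumour cells, in 0.316% (0.008% to 1.75%) of B-cell-like cells, in 0 of 1087 T-cell-like cells (up to 0.339%) and in 0 of 611 fibroblast-like cells (up to 0.602%). Unthinned levels there were 22.4 CPM in tumour cells, 17.3 CPM in macrophage/monocyte-like, 13.1 CPM in B-cell-like, 6.24 CPM in T-cell-like and 2.06 CPM in fibroblast-like cells. Erythroid-like cells of preSC_CracdKO had 55.8 CPM (42 UMIs).

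Cox6a2 varied between tumour clusters. It was among the leading genes of lung cluster 3, also led by Cxcl13, where it had 133 CPM in RPR2 and 147 CPM in CRPR2, and it had 151 and 143 CPM in the cycling cluster 7. In cluster 1, led by the serine protease gene Klk1 and the immediate-early gene Npas4, it had 25.4 and 37.6 CPM. Within the shared allograft clusters the libraries had no common order, with 68.3 and 79.96 CPM in cluster 0, 24.9 and 40.3 CPM in cluster 4 and 37.9 and 26.0 CPM in cluster 6. In cluster 2 it had 282 CPM in the 29 cells of preSC_WT and 118 CPM in preSC_CracdKO. The 3.28-fold difference of the whole tumour class was therefore not seen within each cluster.

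Cox6b2, the testis form, was highest among the tumour clusters in cycling lung cells. It had 48.5 and 54.3 CPM in lung tumour cells of RPR2 and CRPR2 and 9.56 and 9.31 CPM in preSC_WT and preSC_CracdKO. In the cycling lung cluster 7 it had 109 CPM in RPR2 and 209 CPM in CRPR2, and in the other 4 lung tumour clusters 16.1 to 74.8 CPM. T-cell-like cells of RPR2 had 23.4 CPM, but their cluster 17 (69 cells) had 92.3 CPM (64.3 to 128), an interval that overlaps that of cluster 7 in RPR2 (99.7 to 118). Monocyte-like cells of RPR2 had 28.6 CPM (22 UMIs), and fibroblast-like cells 60.5 CPM in RPR2 (20 UMIs in 41 cells) and 31.7 CPM in CRPR2 (35 UMIs).

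Ndufa4l2 and Cox4i2, a lung form of Cox4i1, both known to respond to low oxygen, were highest in fibroblast-like cells. The leading genes of that class also held Acta2 in the lung and Rgs5 in the allografts. Both are on the pericyte marker list, so the class may mix kinds of cell. In fibroblast-like cells Ndufa4l2 had 464 CPM in CRPR2 (122 cells) and 448 CPM in preSC_WT (647 cells), and Cox4i2 191 and 96.7 CPM. Tumour cells had 0.802, 0.520 and 0.644 CPM of Ndufa4l2 in RPR2, CRPR2 and preSC_WT, and 27.6 CPM in preSC_CracdKO, whose erythroid-like cells had 54.5 CPM (41 UMIs). A UMI of Ndufa4l2 was seen in 7.99% of preSC_CracdKO tumour cells, and after thinning in 2.56% of them and 0.0463% of those of preSC_WT. It was seen in 0 of 98 B-cell-like cells of preSC_CracdKO, which allows a share of up to 3.69%.

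Within preSC_CracdKO, Ndufa4l2 stood highest in tumour cluster 2, at 63.5 CPM, and lowest in cluster 4, at 12.6 CPM. Cluster 2 was led by Mt1, Trib3, Nupr1, Ppp1r17 and Bnip3. The part of low oxygen in the level of Ndufa4l2 was not tested. Clusters 0, 3 and 6 had 20.1, 17.8 and 52.0 CPM, the last in 68 cells. Of the other restricted forms, Cox7a1, of heart and muscle, had 3.34 to 4.70 CPM in the tumour classes.

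**Figure D5:**
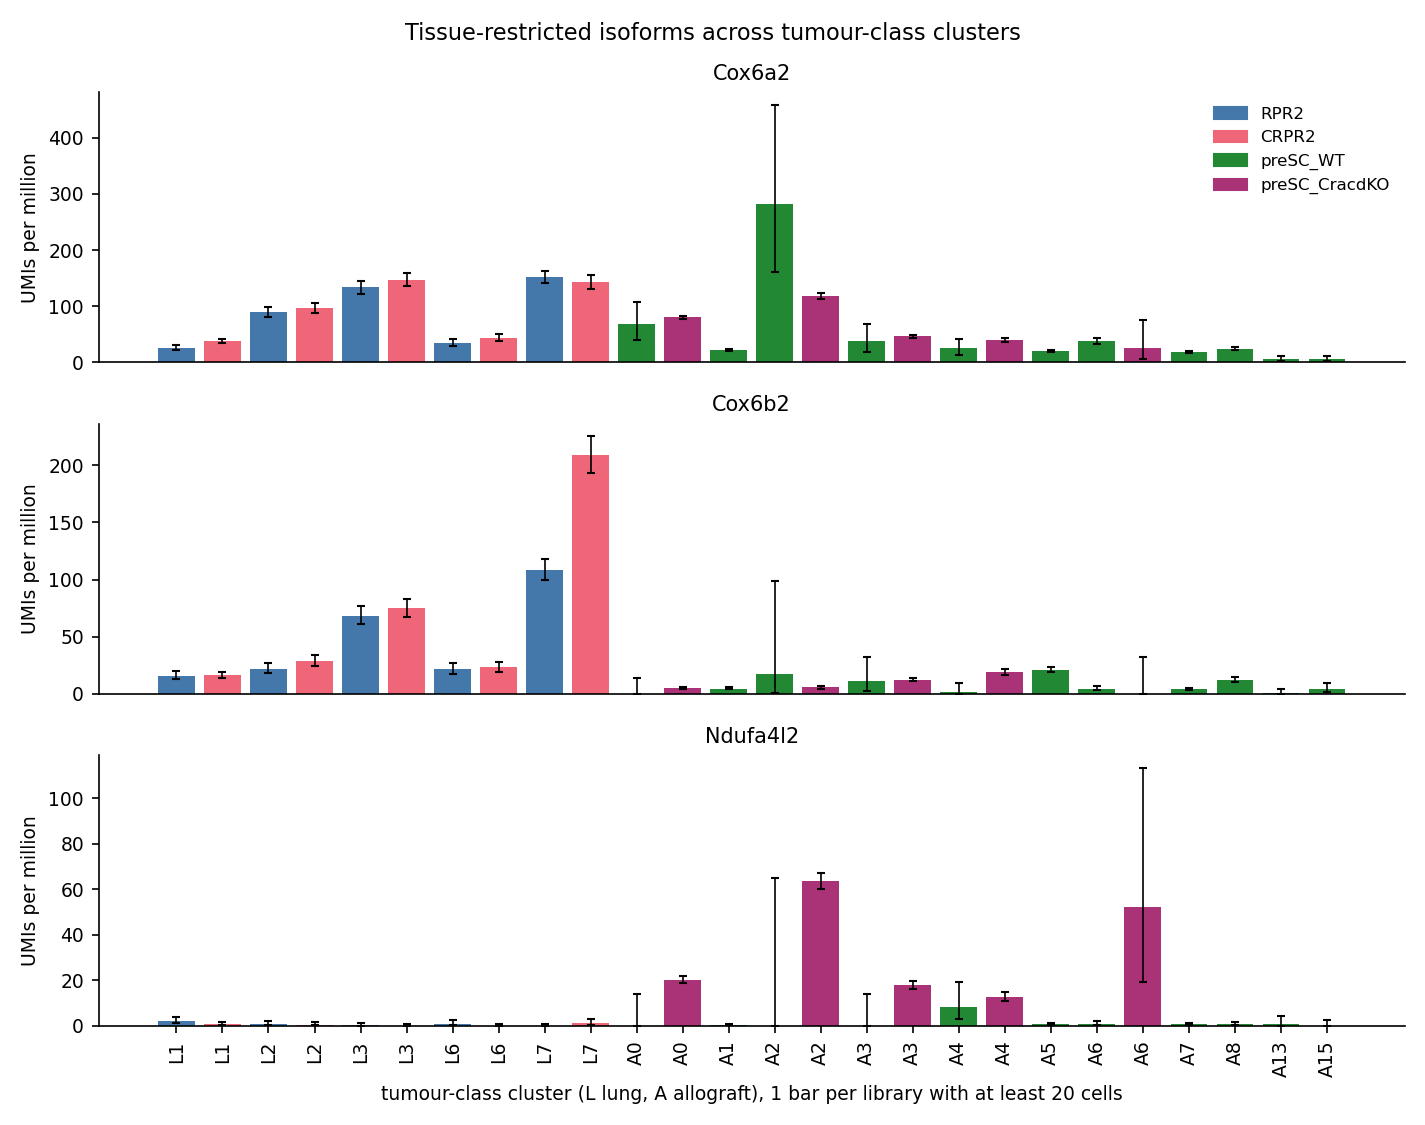
Level (CPM of the cluster, linear axes from 0) of Cox6a2, Cox6b2 and Ndufa4l2 in each tumour cluster with at least 20 cells of a library, with lung clusters marked L and allograft clusters A. Bars are library values and error bars are 95% counting intervals, which are wide where few cells were counted, as in A2 of preSC_WT and A6 of preSC_CracdKO. Cox6b2 stands highest in the cycling lung cluster L7, at 109 and 209 CPM.

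Genes around the chain, outside the symbol rule, had no call in the lung and were split between higher and lower in the allografts. In lung tumour cells none was called of 9 complex II and cytochrome c genes, 23 assembly factors, 9 genes of mitochondrial transcription and RNA, 14 citric acid cycle genes and 20 carriers and import genes, against 2.1% of all genes higher and 2.24% lower. In allograft tumour cells, Cyc1, the complex III subunit that holds cytochrome c1, was higher (166 and 281 CPM, 1.70), and of complex II the anchor Sdhd (48.2 and 25.4 CPM, 0.528) and the assembly factor Sdhaf4 (0.452) were lower. Of 27 assembly factors 6 were higher and 6 lower, among them the copper carriers Cox17 (105 and 51.5 CPM, 0.491) and Sco2 (8.55 and 26.6 CPM, 3.12).

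Of 13 genes of mitochondrial transcription and RNA, 3 were higher and 6 lower in preSC_CracdKO. Lrpprc, which stabilises mitochondrial messenger RNAs, had 53.4 and 97.6 CPM (1.83), and Nrf1 59.1 and 98.4 CPM (1.67). Ppargc1a, a coactivator of mitochondrial genes, had 86.5 and 51.8 CPM (0.599), and Tfb2m, a mitochondrial transcription factor, 30.7 and 19.5 CPM (0.636). Citric acid cycle genes were higher for 3 and lower for 2 of 14, the lowest being Fh1, fumarate hydratase (142 and 49.97 CPM, 0.351). Carriers and import genes were higher for 2 and lower for 3 of 19, with Slc25a4, an ATP and ADP carrier, at 910 and 599 CPM (0.659). These counts stand beside 15.2% of all genes higher and 26.6% lower, and the difference between lists was not tested.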

How the data were processed

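RNA of single cells was measured in 4 libraries of mouse tumours. The deposited matrices hold raw UMI counts. Per the file headers they were written by Cell Ranger 6.1.2 (lung) and 5.0.0 (allografts), while mm10, Seurat 1.8.2, Scanpy 1.8.2 and Cell Ranger 6.1.2 are named in the submitters' processing notes. Annotation release and cell calling: not given in the sources used here.

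Barcodes under 300 genes or over 15% mitochondrial UMIs were dropped. Scrublet doublets were removed, and where its automatic threshold marked under 0.5%, the highest scores at 0.8% per 1000 barcodes (CRPR2 9.57%, preSC_CracdKO 12.9%). This left 8869, 10817, 18111 and 14054 cells. Each pair was clustered on 2000 variable genes, 50 components, rounded so that exact neighbours repeat, and 15 neighbours at Leiden resolution 1.0, seed 1, without integration, and clusters were named from marker lists. Tools were scanpy 1.11.5, leidenalg 0.10.2, igraph 0.11.9, scipy 1.17.1, numpy 2.4.6, matplotlib 3.10.9, anndata 0.12.19 and pandas 2.3.3 under Python 3.11.15.

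Counts were summed per class and library. Sums carry exact Poisson intervals, ratios exact conditional binomial intervals and shares Clopper-Pearson intervals. No test was possible with 1 library per group. log2 ratios of genes were taken after adding 1 CPM. The genes named were all mitochondrial members, per complex the 2 most abundant nuclear genes and those with the largest and smallest ratio, those past 1.5-fold, restricted isoforms at 20 CPM in any class, the c-subunit genes and, in other classes, the 2 farthest from 1 in each direction at 50 CPM. Of the genes that meet this rule, 1 is not reported here. Member genes and lists were chosen with earlier results of these data known. On simulated counts with counting error only, 100 of 100 doubled and 100 of 100 reduced genes were recovered in each pair, with 0 unchanged genes called. These folds lie well past 1.5, so the simulation checks the code and says nothing of the spread between libraries. Alternatives were filters, doublets, depth, totals, minimum levels, cluster weights and Leiden seed 2.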

Additional observations from a re-analysis of the deposited data

Results flagged for a closer look

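Nuclear subunit genes of allograft immune cells and tumour cells differed in opposite directions between the same libraries. The ratio of preSC_CracdKO over preSC_WT was 0.682 in T-cell-like cells (18019 and 12286 CPM) and 0.752 in B-cell-like cells (14339 and 10786.5 CPM), against 1.26 in tumour cells (27128 and 34273 CPM). The difference between these ratios was not tested, since each group held 1 library. Only 71 T-cell-like and 98 B-cell-like cells were kept in preSC_CracdKO. Mitochondrial genes were higher in that library in all 3 classes, by 1.31, 1.34 and 1.63.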

How the results depend on the processing

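No paired analysis was possible because each group held 1 library, and for the same reason no replicate could be left out. The nuclear log2 ratio of lung tumour cells, -0.0109, was -0.0276 with called doublets kept, -0.0408 with cells thinned to 2000 UMIs, -0.00265 with each shared cluster at the same weight, 5.07e-05 without the stress list in the totals, -0.0174 without cycling clusters and 0.0140 with clusters of Leiden seed 2 at the same weight. The mitochondrial one, -0.0119, was -0.0183 at a limit of 10% mitochondrial UMIs, 0.00542 thinned, -0.0558 with clusters at the same weight, -0.000859 without the stress list, -0.0197 without cycling clusters and -0.0662 with those of seed 2 at the same weight. In the lung, 1 gene, Cox6b2, was called higher with clusters of seed 2 at the same weight, and 0 in the other 12 alternatives.

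In the allografts the nuclear log2 ratio, 0.337, was 0.330 with doublets kept, 0.354 over non-mitochondrial totals, 0.346 thinned, 0.252 with clusters at the same weight, 0.310 without the stress list, 0.280 without cycling clusters and 0.0764 with clusters of seed 2 at the same weight. The mitochondrial one, 0.705, was 0.721 over non-mitochondrial totals, 0.722 thinned, 0.737 with clusters at the same weight, 0.678 without the stress list, 0.736 without cycling clusters and 0.715 with those of seed 2 at the same weight. With clusters at the same weight 14 genes were higher and 7 lower, and with those of seed 2 at the same weight 9 and 13. Higher genes numbered 18 to 23 in the other 11 alternatives. Without cycling clusters 4 were lower, Atp5g2, Ndufa1, Ndufaf3 and Ndufb3, but 1 in the other 10. The alternatives on the stress list, cycling clusters and Leiden seed were chosen after seeing the data, and the cause of these changes was not tested. Thinning left 2850, 5566, 11926 and 13105 tumour cells. Depth limited single genes in immune classes of preSC_CracdKO.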
